A study of Bos taurus with 12 samples.

Results

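The genes by which the liver makes cholesterol and senses its own sterol content were followed in newborn calves whose dams had or had not received extra methionine before calving. A set of 30 genes was chosen by name: 19 enzymes between acetyl-CoA and cholesterol, 6 genes of the SREBP2 control system, 3 genes of sterol movement inside the cell and 2 enzymes that esterify cholesterol. The names were taken by pathway membership, at a time when earlier results of these data were known. Of the 30 names, 29 were matched to an Entrez gene of the count files through the bovine RefSeq table. All 29 passed the filter on weak expression, among 13212 genes tested. STARD4, a carrier of cholesterol between membranes, was not analysed here.

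Liver was taken by puncture biopsy from Holstein heifer calves at 4 d of age. The 6 libraries labelled as control calves (CON) came from calves of cows on a basal close-up diet (crude protein 15.3%, energy 1.47 Mcal per kg of dry matter) without added methionine. The 6 libraries labelled as methionine calves (MET) came from calves of cows given that same diet plus Mepron, methionine coated with ethyl cellulose to protect it in the rumen. The diets differed for the last 28 d of pregnancy and all calves were managed alike after birth, so the treatment was that of the dam. Expression is given as CPM, the reads of a gene scaled to a common library total after TMM normalization, which sets the bulk of genes to similar values across libraries.

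Cholesterol is built from acetyl-CoA by way of mevalonate, farnesyl diphosphate, squalene and lanosterol, and the liver is a main site of this synthesis. Transcription of the pathway is driven by SREBP2, which is made as a precursor in the endoplasmic reticulum. When membrane sterol is low, SCAP escorts SREBP2 to the Golgi, where the proteases encoded by MBTPS1 and MBTPS2 release the part that enters the nucleus. When sterol is plentiful, the proteins encoded by INSIG1 and INSIG2 hold SCAP back, and INSIG1 is itself a target gene of SREBP2.

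Between 8277789 and 10397604 reads were counted per library, and 3 reads, taken as the floor of measurement, equal 0.277 to 0.377 CPM, below every value of the 29 genes. The counts of CON replicates 1 and 4 were almost the same within sampling noise (chi-square per gene 1.33), as were those of MET replicates 1 and 3 (1.24), against 25.2 to 133 in the other 64 pairs of libraries. Each of these pairs was taken as 1 sample, CON 1/4 and MET 1/3, which leaves 5 samples per diet. The fit to 12 libraries enters these pairs as if they were separate calves, so the FDR from the 10 samples is given beside it for each gene whose test is printed. Log2 fold changes, standard errors and 95% intervals are those of the 12 libraries unless the 10 samples are named. The diets also carried different first index sequences, so index and diet cannot be told apart. In bulk tissue, fewer cells of a type and less RNA per cell cannot be told apart either. All 8 hepatocyte markers were expressed, with summed levels of 130000 to 176900 CPM in CON and 108600 to 134900 CPM in MET. Most of the difference between these sums lay in ALB, with means of 62220 CPM in CON and 39450 CPM in MET, and TF, with 51600 and 41170 CPM. The lowest edgeR FDR of the 8 was 0.107, for ALB (10 samples 0.233). The log2 fold change was above 0 for 3 (APOA2 0.18, TTR 0.068 and FGB 0.032) and below 0 for 5, TTR turning to −0.024 in the 10 samples. The 7 markers of dividing cells summed to 24.3 to 89.4 CPM in CON and 12.4 to 31.8 CPM in MET, and CCNB1 and CDK1 among them were lower in MET (edgeR quasi-likelihood FDR 0.0719 and 0.0766 for the 12 libraries, 0.173 for both genes in the 10 samples). Of 7 Kupffer cell markers C1QB was higher in MET (edgeR FDR 0.0855, 10 samples 0.214), and of 6 stellate cell markers LUM was lower (edgeR FDR 0.0985, 10 samples 0.211). These are 2 of 7, 1 of 7 and 1 of 6 genes, beside 4.41% of all genes at an edgeR FDR of 0.10 or less with the 12 libraries. The log2 fold change was below 0 for all 7 dividing and all 6 stellate cell markers. It was above 0 for all 7 Kupffer cell markers. For dividing, stellate and Kupffer cells, the unadjusted edgeR p was 0.05 or less for 6, 2 and 3 genes, against 20.5% of all. In the 10 samples these counts were 6, 1 and 2, against 16.4%. With the 10 samples edgeR called 0 of all genes, DESeq2 called 624, and 2162 had an unadjusted p of 0.05 or less in edgeR. For summed marker levels in the 10 samples, the unadjusted exact two-sided permutation p was 0.0397 for hepatocytes and 0.0238 for dividing cells. For the other marker lists this p was 0.111 to 0.746. The part of these cell types in the results was not tested.

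Most genes of cholesterol synthesis had lower mean expression in MET than in CON calves, but few differences exceeded the spread between calves. The log2 fold change of MET against CON was below 0 for 25 of the 29 genes. Its median was −0.26, against −0.0031 for all genes tested, of which 50.4% were below 0. A log2 fold change of −0.5 or lower was measured for 9 of the 29 genes, against 6.71% of all genes. The members share samples and varied together, so these counts are not counts of independent events.

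The test across all genes was edgeR's quasi-likelihood test, with p adjusted by Benjamini-Hochberg over all genes (FDR) and a threshold of 0.10. Over the 12 libraries 2 of the 29 genes passed, INSIG2 and SC5D, both lower in MET, where 4.41% of all genes passed, 2.32% as lower and 2.09% as higher. Over the 10 samples 0 of the 29 passed, as did 0% of all genes, although the unadjusted p was 0.05 or less for 16.4% of all genes and for 3 of the 29. Over the 12 libraries 5 of the 29 reached that unadjusted p, all lower in MET, against 20.5% of all genes in either direction and 10.4% as lower. By the unadjusted p, the share of members was 17.2% over the 12 libraries and 10.3% over the 10 samples, both under the share of all genes in either direction. Counted as lower in MET only, the 17.2% over the 12 libraries stood above the 10.4% of all genes. DESeq2 called the same 2 members, INSIG2 and SC5D, over the 12 libraries, where 10.4% of genes passed, and over the 10 samples, where 5.23% passed.

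**Figure D1:**
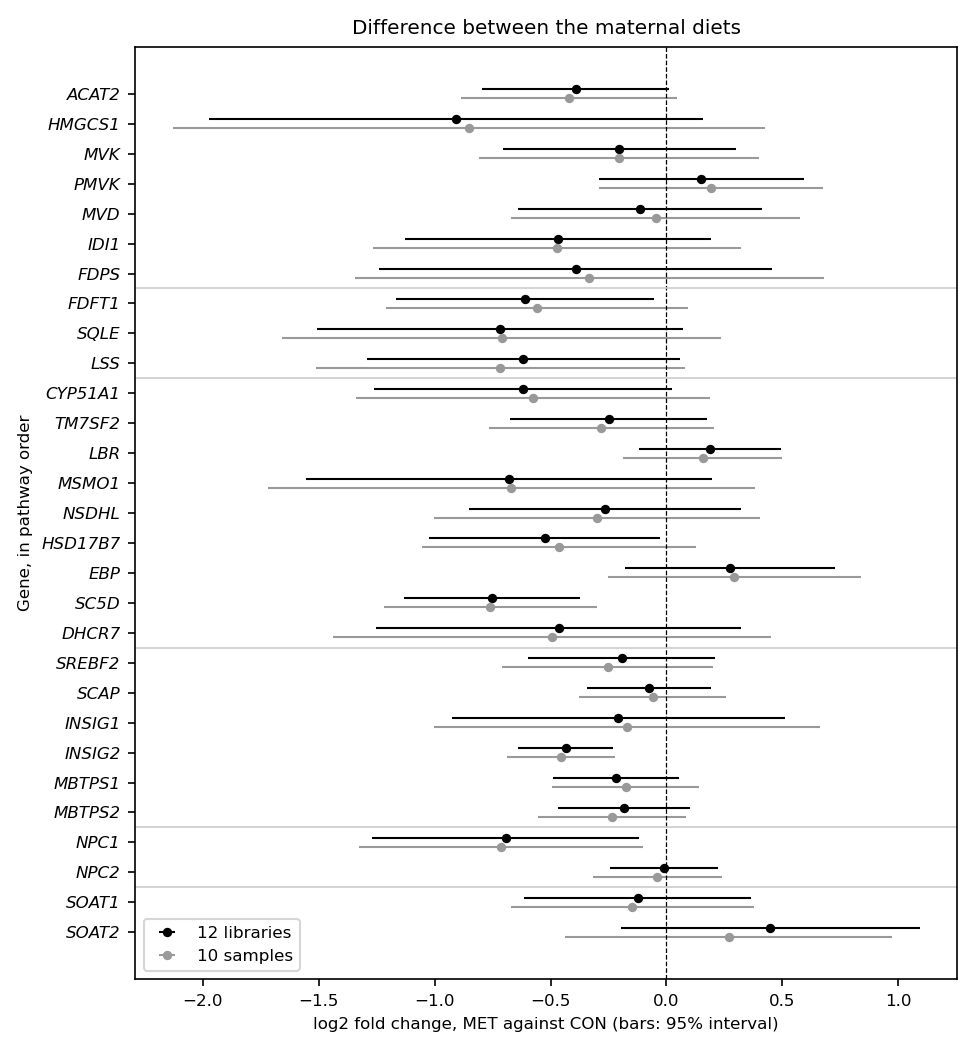
Log2 fold change of MET against CON for each of the 29 genes in pathway order, with 95% intervals, for 12 libraries (black) and 10 samples (grey); horizontal lines part the groups of genes. Points lie left of 0 for 25 genes, and the intervals of both fits exclude 0 for INSIG2, SC5D and NPC1.

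INSIG2 encodes a membrane anchor that retains the complex of SCAP and SREBP2, and in rodent liver a transcript of it is known to be lowered by insulin. The gene (Entrez 534440) lies on chromosome 2 of the assembly UMD 3.1.1, from 70121979 to 70144472 on the plus strand. INSIG2 was at 33.7 CPM in CON 1/4, 31.4 in CON 2, 32.7 in CON 3, 31.0 in CON 5 and 31.8 in CON 6. It was at 26.5 CPM in MET 1/3, 21.1 in MET 2, 25.8 in MET 4, 24.3 in MET 5 and 19.6 in MET 6. All MET samples lay below all CON samples, and the CON samples lay close together. The mean was 32.1 ± 1.11 CPM for CON and 23.5 ± 3.002 CPM for MET (both SD, n = 5). Its log2 fold change was −0.43 (standard error 0.095, 95% interval −0.64 to −0.23), or 26.0% lower in MET, with an edgeR FDR of 0.0582. In the 10 samples it was −0.45 (standard error 0.107, 95% interval −0.69 to −0.22) with an edgeR FDR of 0.173. DESeq2 gave INSIG2 an FDR of 0.00418 from the libraries and 0.0207 from the samples. The exact two-sided permutation p of the 10 samples was 0.00794, the smallest that 5 against 5 can give. Among the 29 genes INSIG2 alone separated the diets completely, a share of 3.45%, while 3.74% of all genes did so, 1.78% as lower and 1.96% as higher in MET. Without CON replicate 1 the edgeR FDR of INSIG2 was 0.113, and without CON replicate 4 it was 0.125, at log2 fold changes of −0.43 and −0.41.

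SC5D, the lathosterol desaturase that adds a double bond to the sterol ring late in the pathway, was among the genes of highest level per exonic length. The gene (Entrez 525154) lies on chromosome 15 from 32412504 to 32424511, on the plus strand. SC5D was at 593 CPM in CON 1/4, 653 in CON 2, 689.9 in CON 3, 433 in CON 5 and 436 in CON 6. It was at 359 CPM in MET 1/3, 461 in MET 2, 342 in MET 4, 270.0 in MET 5 and 226 in MET 6. Of the MET samples 4 lay below every CON sample, and only MET 2 overlapped the low end of CON. The mean was 561 ± 121 CPM for CON and 332 ± 90.3 CPM for MET (both SD, n = 5). For SC5D the log2 fold change was −0.75 (standard error 0.18, 95% interval −1.13 to −0.37), or 40.6% lower in MET, with an edgeR FDR of 0.0684. In the 10 samples it was −0.76 (standard error 0.212, 95% interval −1.22 to −0.30) with an edgeR FDR of 0.175. DESeq2 gave FDR values of 0.00366 and 0.0297, and the exact two-sided permutation p was 0.0238. The edgeR FDR of SC5D was 0.123 without CON replicate 1, 0.104 without CON replicate 3, 0.133 without CON replicate 4 and 0.101 without MET replicate 1, with log2 fold changes from −0.77 to −0.69.

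**Figure D2:**
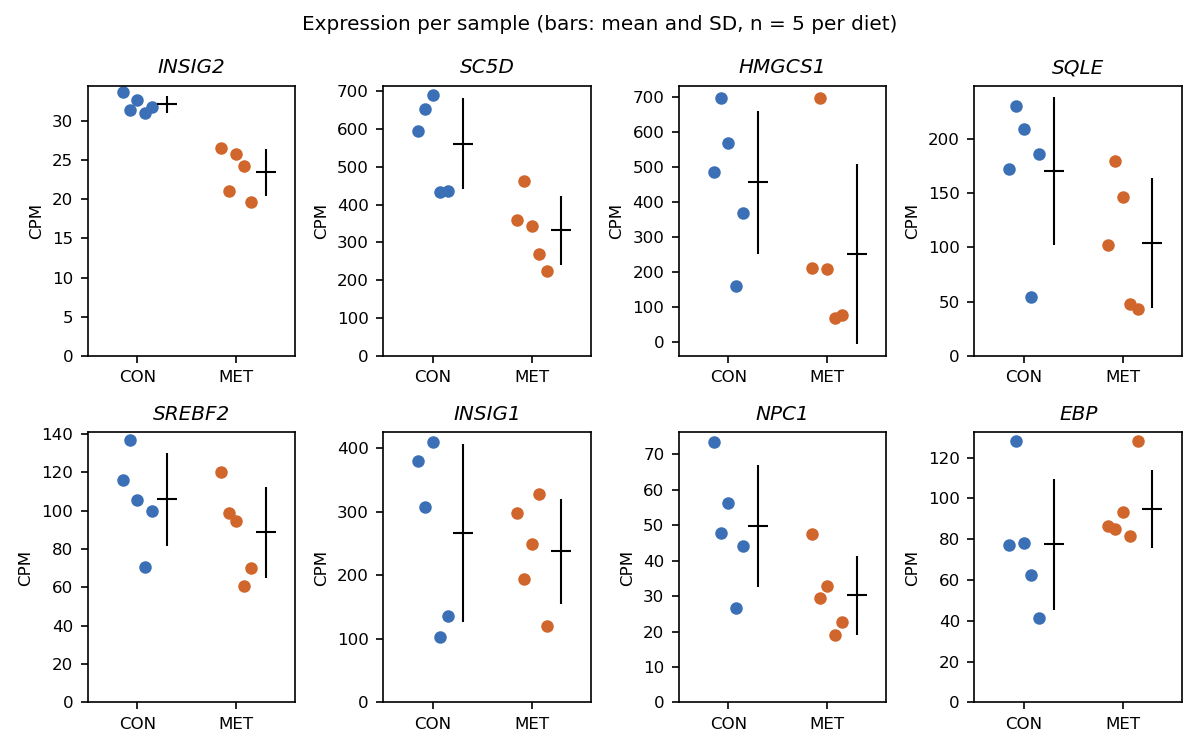
CPM of 8 genes in each of the 10 samples (points), with the mean and SD of the 5 samples per diet beside them. INSIG2 shows no overlap between the diets, SC5D overlaps in MET 2 only, and the highest MET point of HMGCS1, at 696 CPM, stands apart from the other 4.

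From acetyl-CoA to farnesyl diphosphate, 6 of 7 enzymes had lower means in MET and 0 passed the threshold, with edgeR FDR from 0.258 to 0.835 (10 samples 0.350 to 0.953). In this arm the unadjusted p was 0.05 or less for 0 genes, and DESeq2 called 0. Of all genes over the 12 libraries, 4.41% passed in edgeR, 20.5% had that unadjusted p and DESeq2 called 10.4%. HMGCS1, which forms the HMG-CoA that is then reduced to mevalonate, had the widest spread between samples of the 29 genes. HMGCS1 was at 486 CPM in CON 1/4, 697 in CON 2, 568 in CON 3, 161 in CON 5 and 369 in CON 6. It was at 211 CPM in MET 1/3, 696 in MET 2, 209.5 in MET 4, 68.1 in MET 5 and 76.7 in MET 6. The range was 10.2-fold, with MET 5 and MET 6 below every CON sample and MET 2 level with the highest CON sample. The mean was 456 ± 204 CPM for CON and 252.4 ± 258 CPM for MET (both SD, n = 5). Its log2 fold change was −0.91 with a 95% interval from −1.98 to 0.16 (edgeR FDR 0.319), so a large fall and a small rise both lay within it. In the 10 samples it was −0.85 with an interval from −2.13 to 0.42 (edgeR FDR 0.492). Without MET replicate 2 the log2 fold change of HMGCS1 was −1.57 and its edgeR FDR 0.0868, so that 1 library decided whether this gene passed. In the 10 samples, leaving out any 1 sample gave log2 fold changes from −1.69 to −0.61 and FDR from 0.210 to 0.656 by edgeR.

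The enzymes around HMGCS1 in this arm differed less. ACAT2, the cytosolic thiolase that starts the pathway, averaged 137 ± 36.5 CPM in CON and 102 ± 28.3 CPM in MET, with a log2 fold change of −0.39. Its exons overlap those of TCP1 on the other strand, which the stranded counting was set to keep apart. Mevalonate kinase, MVK, averaged 39.8 ± 14.9 and 34.5 ± 12.2 CPM, and mevalonate diphosphate decarboxylase, MVD, 50.1 ± 15.3 and 48.5 ± 21.2 CPM. For PMVK, the kinase between them, the MET mean was the higher one, at 13.4 ± 3.19 against 11.7 ± 3.35 CPM, with a log2 fold change of 0.15 (95% interval −0.29 to 0.59). IDI1, the isomerase of isopentenyl diphosphate, averaged 133 ± 42.9 CPM in CON and 95.6 ± 57.7 CPM in MET. FDPS, which assembles farnesyl diphosphate, averaged 128 ± 60.2 and 102 ± 68.5 CPM. FDPS and PMVK lie 340370 bases apart on chromosome 3, and their log2 fold changes were −0.39 and 0.15. All of these are means with SD of 5 samples, and the diets overlapped for each gene.

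The 3 enzymes from farnesyl diphosphate to lanosterol all had log2 fold changes below −0.6, and none passed the threshold. SQLE, squalene epoxidase, carries out a rate-limiting oxidation. SQLE was at 172 CPM in CON 1/4, 230.2 in CON 2, 209.1 in CON 3, 54.3 in CON 5 and 186 in CON 6. It was at 102 CPM in MET 1/3, 180.1 in MET 2, 146 in MET 4, 48.1 in MET 5 and 43.5 in MET 6. Of the CON samples 3 lay above every MET sample and of the MET samples 2 lay below every CON sample, while CON 5 was nearly as low as the lowest MET samples. The log2 fold change of SQLE was −0.72 with a 95% interval of −1.51 to 0.071 (edgeR FDR 0.288, 10 samples 0.439). Squalene synthase, FDFT1, averaged 210.4 ± 70.2 CPM in CON and 143 ± 54.3 CPM in MET (SD, n = 5), a log2 fold change of −0.61 with an edgeR FDR of 0.206 (10 samples 0.378). Lanosterol synthase, LSS, averaged 26.1 ± 11.2 and 15.8 ± 7.15 CPM, a log2 fold change of −0.62 with an edgeR FDR of 0.286 (10 samples 0.351).

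From lanosterol to cholesterol, 7 of 9 enzymes had lower means in MET, and SC5D alone passed. The lanosterol demethylase CYP51A1 averaged 129.9 ± 41.9 CPM in CON and 87.3 ± 45.01 CPM in MET (SD, n = 5), a log2 fold change of −0.62. MSMO1, NSDHL and HSD17B7 act one after another in removing the methyl groups at the fourth carbon. MSMO1 averaged 287 ± 138 and 181 ± 115 CPM, NSDHL 122 ± 47.4 and 98.9 ± 46.0 CPM, and HSD17B7 44.1 ± 18.7 and 32.0 ± 7.05 CPM. The log2 fold changes of these 3 genes were −0.68, −0.26 and −0.52, with edgeR FDR of 0.368, 0.621 and 0.223 (10 samples 0.514, 0.682 and 0.417). DHCR7, which reduces the last ring double bond to be removed, averaged 121 ± 60.4 and 85.9 ± 52.8 CPM (log2 fold change −0.47). EBP, the isomerase that shifts a ring double bond, had the higher mean in MET, 94.9 ± 19.02 CPM against 77.4 ± 31.9 CPM in CON. Its log2 fold change of 0.27 had a 95% interval from −0.18 to 0.73 (edgeR FDR 0.489, 10 samples 0.587).

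Reduction of the double bond left by the demethylase can be done by the product of TM7SF2 or by LBR, a protein of the nuclear envelope. TM7SF2 averaged 226 ± 64.0 CPM in CON and 186 ± 48.1 CPM in MET (SD, n = 5), with a log2 fold change of −0.25. LBR averaged 10.0 ± 1.09 and 11.2 ± 2.27 CPM, with a log2 fold change of 0.19. Per exonic length, the level of TM7SF2 was 41.2 to 85.5 times that of LBR in CON samples and 25.5 to 60.8 times in MET samples. The ratios of CON and MET samples overlapped (exact two-sided permutation p = 0.190, adjusted over 3 such ratios 0.429).

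All 6 genes of the SREBP2 control system had lower means in MET, and INSIG2 alone passed the threshold. SREBF2, which encodes SREBP2, was at 116 CPM in CON 1/4, 137 in CON 2, 106 in CON 3, 70.6 in CON 5 and 100 in CON 6. It was at 120 CPM in MET 1/3, 98.7 in MET 2, 94.6 in MET 4, 60.7 in MET 5 and 70.1 in MET 6. The diets overlapped, with the lowest values in MET 5, MET 6 and CON 5. The log2 fold change of SREBF2 was −0.19 with a 95% interval from −0.60 to 0.21 (edgeR FDR 0.593, 10 samples 0.577). Leaving out 1 of the 12 libraries gave −0.29 (without CON replicate 5) to −0.094 (without MET replicate 5), and leaving out 1 of the 10 samples −0.39 to −0.14. SCAP, the escort, was at 31.0 CPM in CON 1/4, 34.8 in CON 2, 22.5 in CON 3, 27.4 in CON 5 and 32.7 in CON 6. It was at 27.6 CPM in MET 1/3, 23.8 in MET 2, 33.0 in MET 4, 24.7 in MET 5 and 33.5 in MET 6. The groups of SCAP overlapped almost fully, and its log2 fold change was −0.076 (95% interval −0.34 to 0.19). The protease genes MBTPS1 and MBTPS2 averaged 79.1 ± 9.11 and 8.94 ± 1.07 CPM in CON, and 70.0 ± 13.5 and 7.55 ± 1.07 CPM in MET (SD, n = 5). Their log2 fold changes were −0.22 and −0.18, with edgeR FDR of 0.350 and 0.463 (10 samples 0.575 and 0.445).

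INSIG1, the other anchor, varied far more between calves than INSIG2. INSIG1 was at 379.6 CPM in CON 1/4, 307 in CON 2, 409 in CON 3, 104 in CON 5 and 136 in CON 6. It was at 298 CPM in MET 1/3, 194 in MET 2, 249 in MET 4, 327 in MET 5 and 119.6 in MET 6. All MET samples lay between the lowest and the highest CON sample, and MET 5, the lowest sample for HMGCS1, was the highest MET sample for INSIG1. The log2 fold change of INSIG1 was −0.21 with a 95% interval from −0.93 to 0.51 (edgeR FDR 0.767, 10 samples 0.863). Over the 10 samples its sign changed when CON 3 was left out, to a log2 fold change of 0.035. Per exonic length, INSIG1 was at 2.13 to 7.96 times the level of INSIG2 in CON samples and at 3.89 to 8.57 times in MET samples (exact two-sided permutation p = 0.349, adjusted over 3 ratios 0.429).

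NPC1 and NPC2 encode the pair of proteins that pass cholesterol out of lysosomes. NPC1 averaged 49.7 ± 17.1 CPM in CON and 30.2 ± 11.1 CPM in MET (SD, n = 5). Its log2 fold change was −0.69 with a 95% interval from −1.27 to −0.12, but the edgeR FDR was 0.172. In the 10 samples the interval was −1.33 to −0.10 and the edgeR FDR 0.250. An exon of NPC1 overlaps RMC1 on the opposite strand. NPC2 averaged 95.5 ± 14.5 and 92.9 ± 8.74 CPM, with a log2 fold change of −0.011 and an interval from −0.25 to 0.22.

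SOAT1 and SOAT2 esterify cholesterol for storage, and SOAT2 also serves lipoprotein assembly in hepatocytes and enterocytes. SOAT1 was at 30.7 CPM in CON 1/4, 16.8 in CON 2, 27.6 in CON 3, 16.4 in CON 5 and 21.1 in CON 6, and at 29.8 CPM in MET 1/3, 15.0 in MET 2, 25.1 in MET 4, 16.9 in MET 5 and 14.8 in MET 6. SOAT2 was at 6.19 CPM in CON 1/4, 14.8 in CON 2, 5.95 in CON 3, 8.24 in CON 5 and 10.5 in CON 6, and at 16.3 CPM in MET 1/3, 12.3 in MET 2, 13.2 in MET 4, 6.15 in MET 5 and 6.19 in MET 6. Both genes overlapped between the diets. The log2 fold change of SOAT1 was −0.12 (95% interval −0.61 to 0.37, edgeR FDR 0.803, 10 samples 0.799) and that of SOAT2 0.45 (95% interval −0.20 to 1.09, edgeR FDR 0.420, 10 samples 0.715). The value for SOAT2 was 0.27 in the 10 samples. With 1 of the 12 libraries left out, it ran from 0.29 (without MET replicate 1) to 0.67 (without CON replicate 2), and with 1 of the 10 samples left out from 0.062 (without MET 1/3) to 0.50 (without CON 2). For SOAT1 these ranges were −0.26 (without MET replicate 3) to −0.032 (without CON replicate 4), and −0.33 to −0.0027. Per exonic length, SOAT1 was at 0.571 to 2.496 times the level of SOAT2 in CON samples and at 0.615 to 1.38 times in MET samples (exact two-sided permutation p = 0.429, also after adjustment over 3 ratios).

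The enzymes went up and down together from calf to calf, within as well as between the diets. Summed over the 19 enzymes, expression was 3131 CPM in CON 1/4, 4037 in CON 2, 3546 in CON 3, 1633 in CON 5 and 2358 in CON 6. The sum was 2052 CPM in MET 1/3, 3454 in MET 2, 2132 in MET 4, 1178 in MET 5 and 1284 in MET 6. Each diet thus had calves near both ends of the range. CON 2 held the highest value of 9 enzymes, and MET 5 and MET 6 held the lowest value of 8 each. CON 5 was among the lowest 3 samples for 16 of the 19 enzymes, and MET 2 among the highest 3 for 10.

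The spread of the enzymes was also large beside that of other genes. The SD of log2 CPM within diets was above the median of all genes tested, 0.29, for 18 of the 19 enzymes, and at or above the 90th percentile for 8. It was 1.12 for HMGCS1, 0.97 for MSMO1 and 0.92 for FDPS. Of the other 10 members 5 were above that median and 1, INSIG1, was at or above the 90th percentile. INSIG2 had an SD of 0.14, at the 6.19th percentile, so that a smaller difference than that of HMGCS1 stood clear of the spread.

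**Figure D3:**
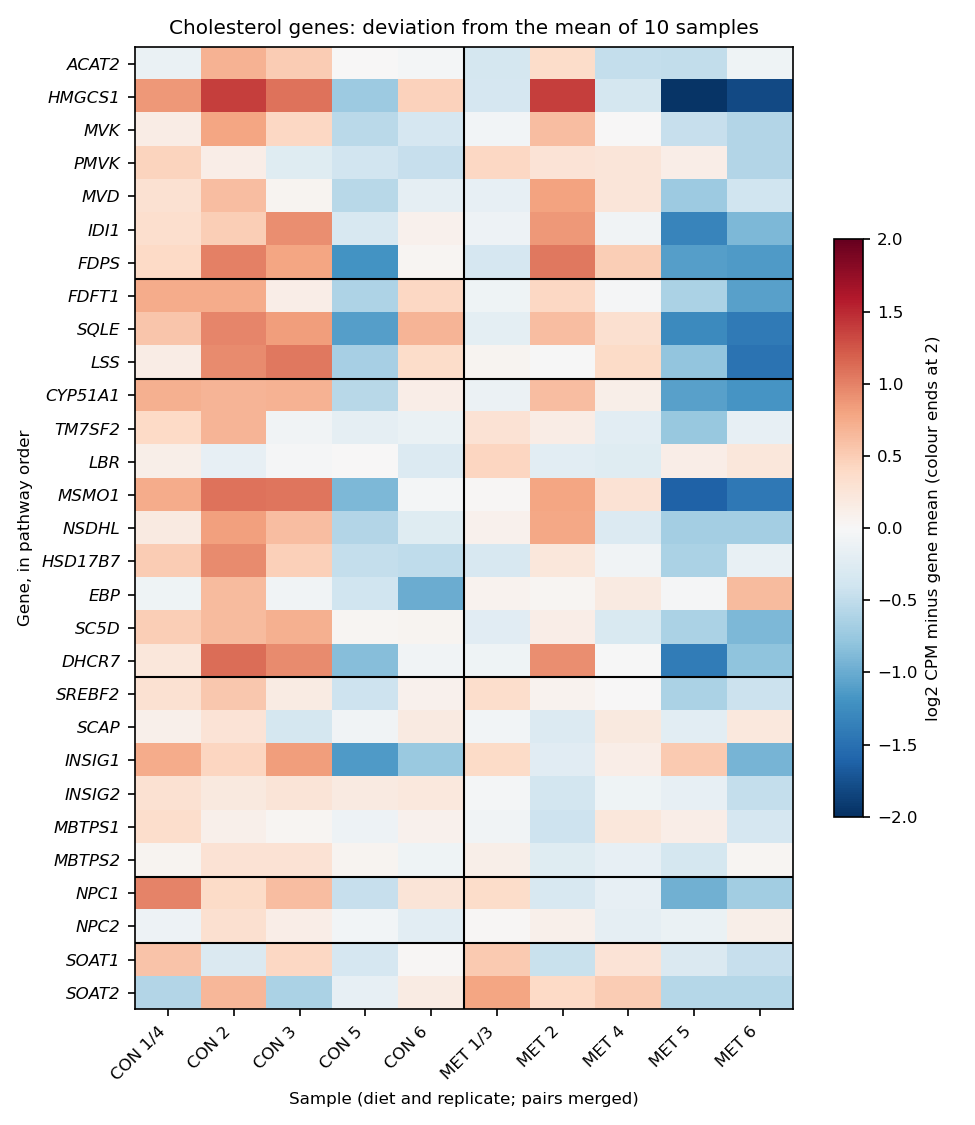
Log2 CPM of each gene in each sample minus the mean of that gene over the 10 samples, with genes in pathway order and lines between groups; red is above and blue below the mean. Columns CON 2, CON 3 and MET 2 are mostly red and CON 5, MET 5 and MET 6 mostly blue across the 19 enzymes, and LBR, EBP and PMVK are among those that depart from this.

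To describe this shared variation, log2 CPM of each of the other 18 enzymes was correlated with that of HMGCS1 across the 10 samples, which share the library, its depth and its scaling between the genes compared. The adjusted permutation p (Benjamini-Hochberg over 18 relations) was at most 0.05 for 15 enzymes by Pearson's r and for 15 by Spearman's rho. CYP51A1 had r = 0.973 (permutation p = 9e-05, adjusted 0.000324) and rho = 0.867 (permutation p = 0.00226, adjusted 0.00407). MSMO1 had r = 0.954 (permutation p = 5e-05, adjusted 0.000225) and rho = 0.939 (permutation p = 0.00029, adjusted 0.00131). SC5D had r = 0.897 (permutation p = 0.00069, adjusted 0.00138) and rho = 0.891 (permutation p = 0.00122, adjusted 0.00314). The exceptions were PMVK with r = 0.314, LBR with r = −0.514 and EBP with r = −0.111, for which the adjusted permutation p was 0.390, 0.145 and 0.764.

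After each diet was centred on its own mean, 14 of the 18 enzymes had an adjusted permutation p of at most 0.05, with ACAT2 no longer among them (r = 0.615, adjusted permutation p = 0.0702). Without MET 5 and MET 6, the samples farthest from the median of HMGCS1, 13 enzymes did. The r was then 0.928 for CYP51A1, 0.872 for MSMO1 and 0.761 for SC5D. Over the 10 samples an r of at least 0.7 was found for 15 of the 18 enzymes, against 1.67% of the 13211 genes other than HMGCS1. Of the 20 genes with the highest r, 10 were members: CYP51A1, IDI1, MSMO1, DHCR7, SQLE, NSDHL, FDPS, FDFT1, SC5D and MVK.

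**Figure D4:**
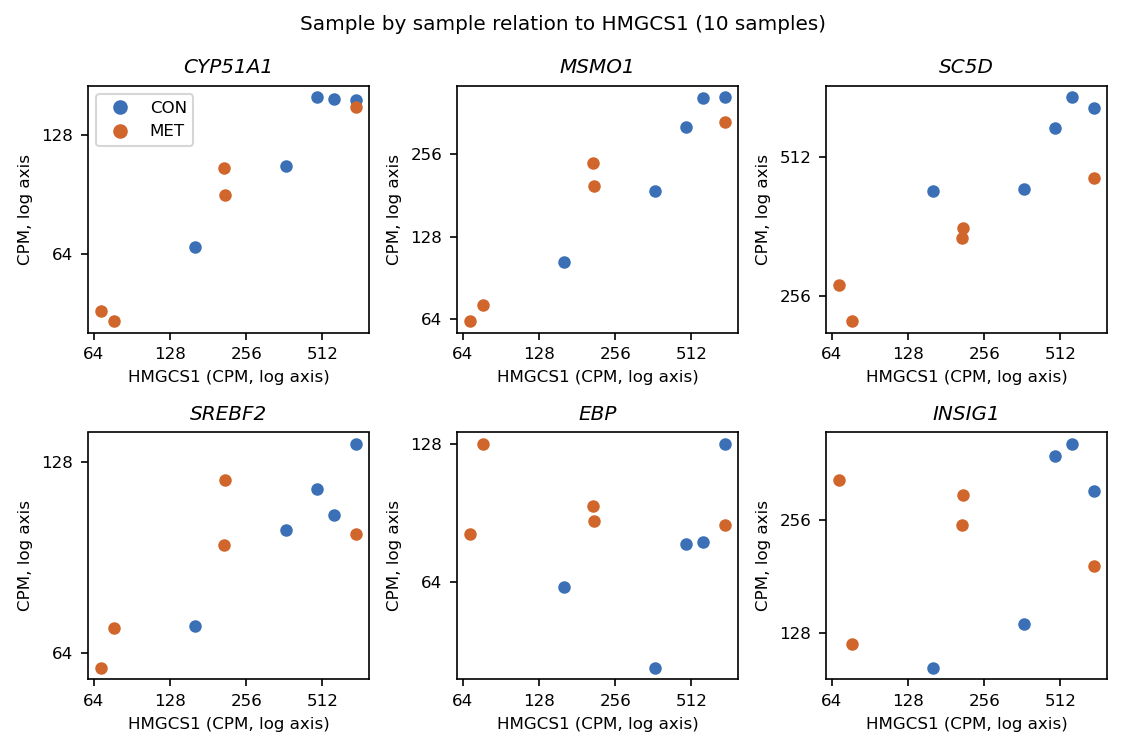
CPM of 6 genes against CPM of HMGCS1 in the 10 samples, both on log axes, with CON in blue and MET in orange. CYP51A1 (r = 0.973), MSMO1 (r = 0.954) and SC5D (r = 0.897) increase with HMGCS1, while EBP (r = −0.111) and INSIG1 (r = 0.347) are scattered.

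Levels can be compared between genes per exonic length, as the mean CPM per kilobase of exons over the 10 samples. SC5D averaged 144, TM7SF2 126 and MSMO1 119 CPM per kilobase. The order differed between the diets. In CON it was SC5D at 181, MSMO1 at 146, TM7SF2 at 138 and IDI1 at 98.0 CPM per kilobase, and in MET TM7SF2 at 113, SC5D at 107, MSMO1 at 91.8 and EBP at 84.8 CPM per kilobase. The lowest enzymes in both diets were LBR, averaging 2.60, and LSS, averaging 9.54 CPM per kilobase. In the control system the order, the same in both diets, was INSIG1 at 52.95, SREBF2 at 19.1, MBTPS1 at 17.7, INSIG2 at 9.17, SCAP at 6.73 and MBTPS2 at 1.76 CPM per kilobase. Neighbours such as SREBF2 and MBTPS1, or SOAT1 at 4.93 and SOAT2 at 4.57 CPM per kilobase, overlapped between samples.

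**Figure D5:**
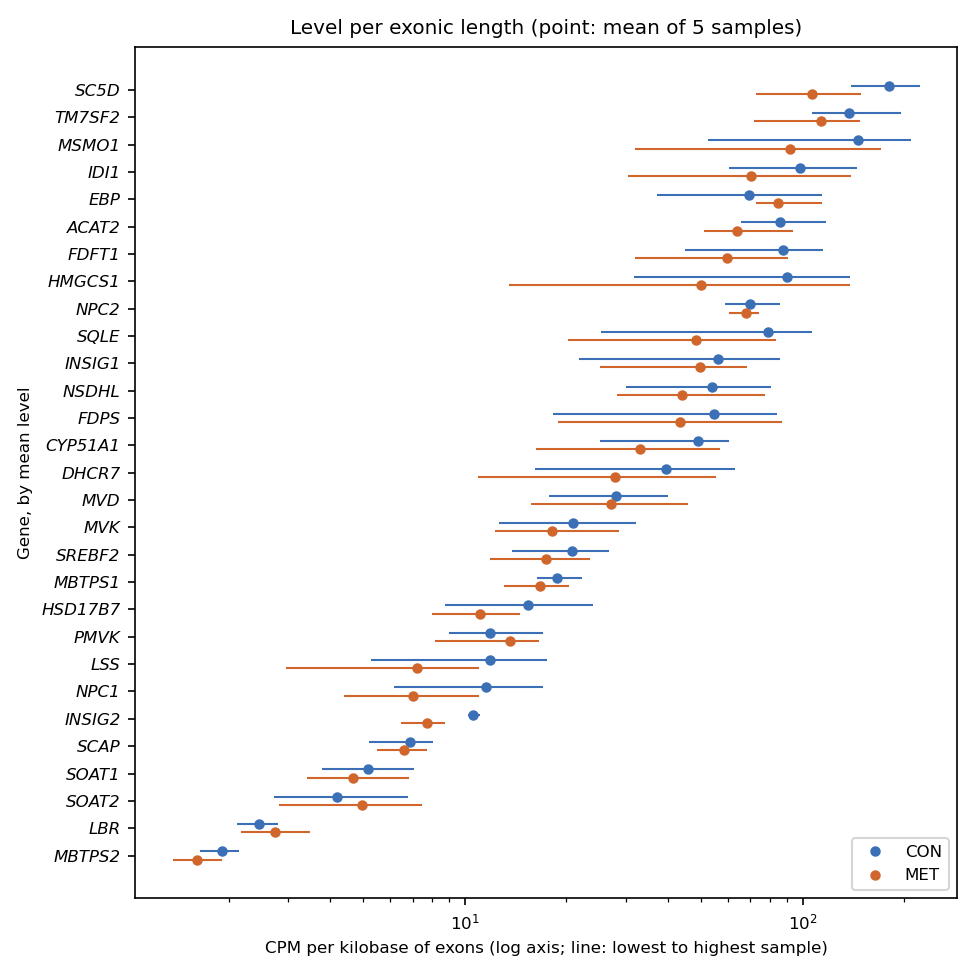
CPM per kilobase of exons for the 29 genes on a log axis, ordered by the mean of the 10 samples; points are means of 5 samples per diet and lines run from the lowest to the highest sample. By that mean SC5D is at the top with 144 and MBTPS2 at the bottom with 1.76, although TM7SF2 is above SC5D in MET, and the lines of the diets are apart for INSIG2 only.

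Genes around the pathway were taken from 5 lists drawn up by function, of which 4 had medians nearer to that of all genes than to that of the members. Of 13 genes of the isoprenoid branches, which use intermediates of the pathway for dolichol, ubiquinone and protein prenylation, 9 had higher means in MET, with a median log2 fold change of 0.044 (10 samples 0.040). The median was 0.015 (10 samples −0.020) for 11 genes of sterol-regulated protein degradation in the endoplasmic reticulum, 0.038 (10 samples 0.055) for 13 sterol transfer proteins and 0.11 (10 samples 0.066) for 8 genes of sterol efflux and the liver X receptors. In edgeR's quasi-likelihood test 0 genes of these 4 lists passed an FDR of 0.10, over the 12 libraries or the 10 samples. Of all genes 4.41% and 0% passed. The unadjusted p from the 12 libraries was 0.05 or less for 2, 1, 2 and 2 genes of these lists in the same order, or 15.4%, 9.09%, 15.4% and 25% of each, against 20.5% of all genes. From the 10 samples it was so for 2, 2, 1 and 1 genes, against 16.4% of all genes.

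The fifth list, acetyl-CoA supply and SREBF1, had a median log2 fold change of −0.21 (10 samples −0.18), beside −0.26 (10 samples −0.30) for the members. Its genes lay on both sides of 0, 2 above and 3 below with the 12 libraries, from −0.98 for ACSS2 to 0.64 for SREBF1. Of its 5 genes 0 passed in edgeR's test, where 4.41% of all genes did. The unadjusted p was 0.05 or less for 2 of the 5 in either fit, against 20.5% and 16.4% of all genes. ACSS2 and SREBF1 of this list, and UBE2G2 of the degradation list, did not pass and were named after their values were seen. ACSS2, which makes acetyl-CoA from acetate, averaged 39.5 ± 22.7 CPM in CON and 19.1 ± 9.35 CPM in MET (SD, n = 5), a log2 fold change of −0.98 with an edgeR FDR of 0.156 (10 samples −1.04 and 0.268). SREBF1, the gene of the related factor that drives fatty acid synthesis, averaged 79.2 ± 20.5 CPM in CON and 116 ± 29.3 CPM in MET, a log2 fold change of 0.64 with an edgeR FDR of 0.103 (10 samples 0.55 and 0.242). UBE2G2, a ubiquitin-conjugating enzyme, averaged 33.9 ± 3.79 CPM in CON and 46.7 ± 9.20 CPM in MET, a log2 fold change of 0.44 with an edgeR FDR of 0.101 (10 samples 0.46 and 0.185).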

How the data were processed

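Liver RNA was sequenced as 12 stranded mRNA libraries on 1 lane, each labelled as a calf. The authors trimmed the reads, mapped them with STAR 2.5.3a (assembly UMD 3.1.1) and deposited raw counts of reads per Entrez gene and library, made with featureCounts (Subread 1.5.2) on the reverse strand, without reads that matched several places or genes. Symbols came from the bovine RefSeq table, which named 25105 of 30336 IDs.

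From the counts, CPM after TMM scaling was computed with edgeR 4.0.16 in R 4.3.3. The default filter (minimum count 10, minimum total 15) kept 13212 of 21227 genes with a read. Diets were compared by edgeR's quasi-likelihood test on diet alone, with Benjamini-Hochberg FDR at most 0.10, over the 12 libraries, the design of the study, and over 10 samples with near-identical libraries summed. DESeq2 1.42.0 and limma 3.58.1 (voom) were alternatives. Each mean and SD is of 5 samples per diet, the CPM of a pair being averaged. Exact permutation tests used log2 CPM with a prior count of 2 and all 252 arrangements, and correlations used 100000 permutations. The test scripts were checked on simulated data.

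The members and lists were chosen with earlier results of these data known. Values in every sample are given for members that passed the FDR threshold or did not overlap between diets, and for SREBF2, INSIG1, INSIG2, SCAP, HMGCS1, SQLE, SOAT1 and SOAT2, and of other lists, counts and genes that passed. ACSS2, SREBF1 and UBE2G2, which did not pass, were added after their values were seen. Summed marker levels (CON, then MET) were 52.1 to 91.8 and 34.7 to 75.4 CPM for 4 of 5 cholangiocyte genes, 1128 to 1577 and 1327 to 1783 CPM for Kupffer cells, 588 to 893 and 434 to 772 CPM for stellate cells, 239 to 403 and 218 to 343 CPM for 6 endothelial genes, 1.40 to 26.9 and 3.25 to 23.7 CPM for 1 of 6 erythroid genes and 5.53 to 16.7 and 5.17 to 17.4 CPM for 3 of 6 lymphocyte genes. Floors cover counting error only.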

Additional observations from a re-analysis of the deposited data

Results flagged for a closer look

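Within each diet, the highest or lowest CPM of the 5 samples was compared with the others for each of the 29 genes by Dixon's test, 58 groups in all. The same test on log2 CPM, the scale of the spread and correlations, was not run. In 2 of the 58 a sample stood apart, where chance gives about 1 in 20. HMGCS1 was at 696.4 CPM in MET 2, against 68.1 to 211 CPM in the other MET samples. EBP was at 128 CPM in MET 6, against 81.4 to 93.6 CPM in the other MET samples.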

How the results depend on the processing

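Of the alternatives to 583 called genes and 2 called members, the 10 samples gave 0 and 0, library size in place of TMM 107 and 0, and no filter on low counts 238 genes, DESeq2 1314 and removal of a gene length trend 250, each with the same 2 members. With library size only, 71 called genes were higher and 36 lower in MET, against 276 and 307 with TMM. Leaving out each library gave 26 to 565 genes (26 without CON 1, 35 without CON 4, 206 without MET 1) and 0 to 3 members: 0 without CON 1 or CON 4, INSIG2 alone without CON 3 or MET 1, and HMGCS1 in addition without MET 2. Leaving out each of the 10 samples was tried after seeing the data. It gave 0 members throughout, and 0 genes except 39 without MET 1/3 with the filter applied anew. Over all fits that left out a library or sample, the log2 fold change ran from −0.145 to 0.00048 for SCAP and from −0.3805 to 0.03522 for INSIG1. Among the fits to 10 samples, SCAP without CON 2 changed sign with the filter applied anew but not with the same genes (−0.0010), and INSIG1 without CON 3 changed sign in both (0.03509 with the filter applied anew). Complete separation of the diets held for 1 to 2 members, EBP joining INSIG2 without CON 2 and SC5D without MET 2. That is 6.897% of members in each of these 2 cases, beside 6.275% and 5.434% of all genes, against 3.448% of members and 3.739% of all genes with every sample in. The median log2 fold change of the members was between −0.45 and −0.19 in every fit. No pairing by replicate number was seen (r of same-numbered deviations −0.196 to 0.160, with 0 of 6 CON libraries closest to their own number). Taken over all genes at once, these r cannot exclude a block of small effect. The fit with the replicate block called 6 genes and 0 members. The cause of these changes was not tested. With 5 samples per diet, wide intervals such as that of HMGCS1 limit what can be seen.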

Other observations

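The relation to HMGCS1 was also computed for 15 genes that are not sterol enzymes, chosen after values had been seen, with p adjusted over these 15. ACLY, which makes acetyl-CoA from citrate, had r = 0.970 (permutation p = 4e-05, adjusted 0.0006) and rho = 0.976 (permutation p = 6e-05, adjusted 0.0009) across the 10 samples, and r = 0.974 without MET 5 and MET 6. ACSS2 had r = 0.896 (permutation p = 0.0007, adjusted 0.00525) and rho = 0.939 (permutation p = 0.00023, adjusted 0.00173), and r = 0.847 without these samples. SREBF2 had r = 0.829 (permutation p = 0.00371, adjusted 0.0186) and rho = 0.794 (permutation p = 0.00869, adjusted 0.0435), but r = 0.587 without them. INSIG1, itself a target gene of SREBP2, had r = 0.347 (adjusted permutation p = 0.435) and rho = 0.358 (adjusted permutation p = 0.584). INSIG2 had r = 0.492 (adjusted permutation p = 0.435), and r = 0.079 after each diet was centred on its own mean. SREBF1 had r = −0.416 (adjusted permutation p = 0.435).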
